A study of Rattus norvegicus with 45 samples.

Results

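Protein kinase A is the main intracellular effector of cyclic AMP (cAMP), and the 10 genes described here encode its catalytic subunits (Prkaca and Prkacb), its regulatory subunits (Prkar1a, Prkar1b, Prkar2a and Prkar2b) and 4 of the anchoring proteins that hold it in place (Akap5, Akap6, Akap9 and Akap11). They were measured in the frontal cortex, hippocampus and striatum of rats given an antipsychotic or its vehicle. Every probe set of the rat 230 2.0 expression array whose platform symbol was 1 of these genes and no other was taken, which gave 19 of the 31099 deposited probe sets. Of these 19, 17 passed a filter on dim probe sets, and all 10 genes kept at least 1. The probe sets left out were Prkar2a 1375620_at, with a mean of 4.86 on the log2 scale over all arrays, and Akap6 1397867_at, with a mean of 4.84.

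The animals were 15 male Sprague-Dawley rats, aged 9 to 11 weeks when an osmotic minipump was implanted. For 21 days the pump delivered risperidone (5 mg/kg per day), haloperidol (0.25 mg/kg per day) or vehicle (water with 1% acetic acid), with 5 rats in each group. Risperidone and haloperidol are antipsychotics that block dopamine receptors of the D2 type, and risperidone also blocks serotonin receptors. Each rat gave all 3 regions, so 45 arrays formed 9 groups of 5, and only 1 dose and 1 duration of each drug were studied in healthy animals.

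In the resting enzyme a pair of regulatory subunits holds a pair of catalytic subunits inactive, and cAMP frees the catalytic subunits to phosphorylate their targets. Regulatory subunits also carry the docking surface for A-kinase anchoring proteins, which place the enzyme beside receptors, channels, phosphatases and phosphodiesterases. In the striatum, dopamine acts on projection neurons partly by raising or lowering cAMP through receptors of the D1 and D2 types, and kinase A phosphorylates the striatal phosphatase inhibitor encoded by Ppp1r1b.

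Values are the log2 of the deposited intensity, and a difference was called when its adjusted p was under 0.05 in limma over 18609 probe sets and its size was at least 1.2-fold. The regions carried their own markers: the 8 measured markers of striatal projection neurons averaged 11.8 in striatum, against 7.72 in hippocampus and 7.97 in frontal cortex, and the 9 measured markers of pyramidal neurons averaged 5.96 in striatum, against 9.36 in hippocampus and 8.85 in frontal cortex. In striatum, however, the pyramidal markers ranged from -0.61 to 1.56 around the mean of the region in risperidone rats and from -0.34 to 0.81 in haloperidol rats, against -0.64 to -0.13 in vehicle rats, with the highest value in risperidone rat 3. In that array the striatal markers were also the lowest of the region, at -0.85 around its mean. Arrays high in markers of a neighbouring tissue were also found in frontal cortex (olfactory bulb, up to 2.06 above the mean of the region in risperidone rat 2) and hippocampus (choroid plexus and meninges, up to 1.54 in risperidone rat 3). In striatum the choroid plexus and meningeal markers varied in every group, from -0.74 to 1.08 around the mean of the region in risperidone rats and -0.86 to 1.49 in haloperidol rats, against -1.10 to 1.63 in vehicle rats. Around the same mean, striatal markers averaged -0.10 with risperidone, -0.01 with haloperidol and 0.12 with vehicle. Astrocyte markers averaged 0.10, 0.01 and -0.11 in that order, and oligodendrocyte markers 0.07, 0.09 and -0.16. The ranges of these lists overlapped between groups, and their part in the results was not tested. Since tissue was measured in bulk, fewer cells of a type and less RNA per cell cannot be told apart in any result below.

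The promoters of the 3 subunits and the anchor on which the results turn are shown because cAMP acts on genes partly through a short DNA element. RefSeq entries of the GRCr8 assembly matched 9 of the 10 genes, with 10 promoters of 300 bases in all, each from 250 bases before to 50 bases after the annotated start. The sequences below run 5′ to 3′ along the gene's strand, and capitals mark a GC box (GGGCGG, or CCGCCC on the other strand) or the core of a cAMP response element (TGACG, or CGTCA on the other strand). Positions were chr2:238386266-238386565 (minus strand) for Prkacb, chr12:20625674-20625973 (plus strand) for the first of the 2 listed starts of Prkar1b, chr6:54381362-54381661 (minus strand) for Prkar2b and chr4:31147289-31147588 (minus strand) for Akap9.
Prkacb: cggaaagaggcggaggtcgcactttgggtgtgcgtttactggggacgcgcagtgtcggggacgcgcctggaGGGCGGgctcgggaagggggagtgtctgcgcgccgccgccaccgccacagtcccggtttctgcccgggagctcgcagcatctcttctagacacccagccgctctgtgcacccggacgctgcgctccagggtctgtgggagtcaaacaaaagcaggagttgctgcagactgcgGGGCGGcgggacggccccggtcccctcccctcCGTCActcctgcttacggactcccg
Prkar1b: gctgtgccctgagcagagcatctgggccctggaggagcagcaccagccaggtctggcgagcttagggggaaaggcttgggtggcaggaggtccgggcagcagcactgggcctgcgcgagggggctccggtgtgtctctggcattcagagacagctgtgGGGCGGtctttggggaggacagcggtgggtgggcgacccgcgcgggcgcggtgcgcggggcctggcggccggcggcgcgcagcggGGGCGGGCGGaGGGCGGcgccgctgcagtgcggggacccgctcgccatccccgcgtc
Prkar2b: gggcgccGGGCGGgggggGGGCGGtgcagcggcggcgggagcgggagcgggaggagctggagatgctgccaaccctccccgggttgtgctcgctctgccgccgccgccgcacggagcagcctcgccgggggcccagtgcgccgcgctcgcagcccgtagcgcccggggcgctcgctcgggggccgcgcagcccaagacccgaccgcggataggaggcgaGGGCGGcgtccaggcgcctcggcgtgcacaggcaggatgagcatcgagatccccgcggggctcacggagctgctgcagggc
Akap9: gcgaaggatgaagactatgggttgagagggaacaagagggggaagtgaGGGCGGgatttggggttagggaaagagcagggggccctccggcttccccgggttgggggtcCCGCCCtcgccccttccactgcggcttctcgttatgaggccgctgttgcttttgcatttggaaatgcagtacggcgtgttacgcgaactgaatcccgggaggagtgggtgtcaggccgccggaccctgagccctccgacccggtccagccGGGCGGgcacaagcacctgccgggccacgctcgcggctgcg
The core TGACG lay in 3 of the 10 promoters (Prkaca, Prkacb and Akap11), against 21.2% of 33469 rat promoters of the same length, and the full palindrome TGACGTCA, which contains TGACG, lay in 0 of 10, against 1.83%. GC boxes lay in 8 of 10, against 33.1% of all promoters. The GC content of the 10 promoters was 42.3% to 79.0%, against a median of 51.7% over all promoters, with Prkar2b the highest and Akap6 the lowest. A match to such letters is a description of the sequence and not of a bound site.

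In vehicle rats the kinase A genes were called between regions more often than between treatments. The same held for the whole array and is not particular to these genes. Of all 18609 probe sets, 46.1% to 62.5% were called between regions, against, for example, 3.4% with risperidone in frontal cortex. Of 17 probe sets, 13 were called between striatum and frontal cortex (6 higher and 7 lower in striatum), where 46.1% of all 18609 probe sets were called. Between striatum and hippocampus 15 were called (7 higher and 8 lower in striatum), against 62.5% of all probe sets, and between hippocampus and frontal cortex 9 (5 higher and 4 lower in hippocampus), against 53.2%. Hippocampal arrays were brighter as deposited, and the median over all probe sets was -0.06 on the log2 scale for striatum minus frontal cortex, -0.30 for striatum minus hippocampus and 0.25 for hippocampus minus frontal cortex. The contrasts were therefore repeated with each array centred on its median and with quantile normalization. Called in the same direction under all 3 scalings were 11 of 17 (6 higher and 5 lower) for striatum against frontal cortex, where 41.2% of all probe sets met this rule, 12 (7 higher and 5 lower) for striatum against hippocampus, against 31.8%, and 4 (all lower) for hippocampus against frontal cortex, against 20.8%.

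**Figure D1:**
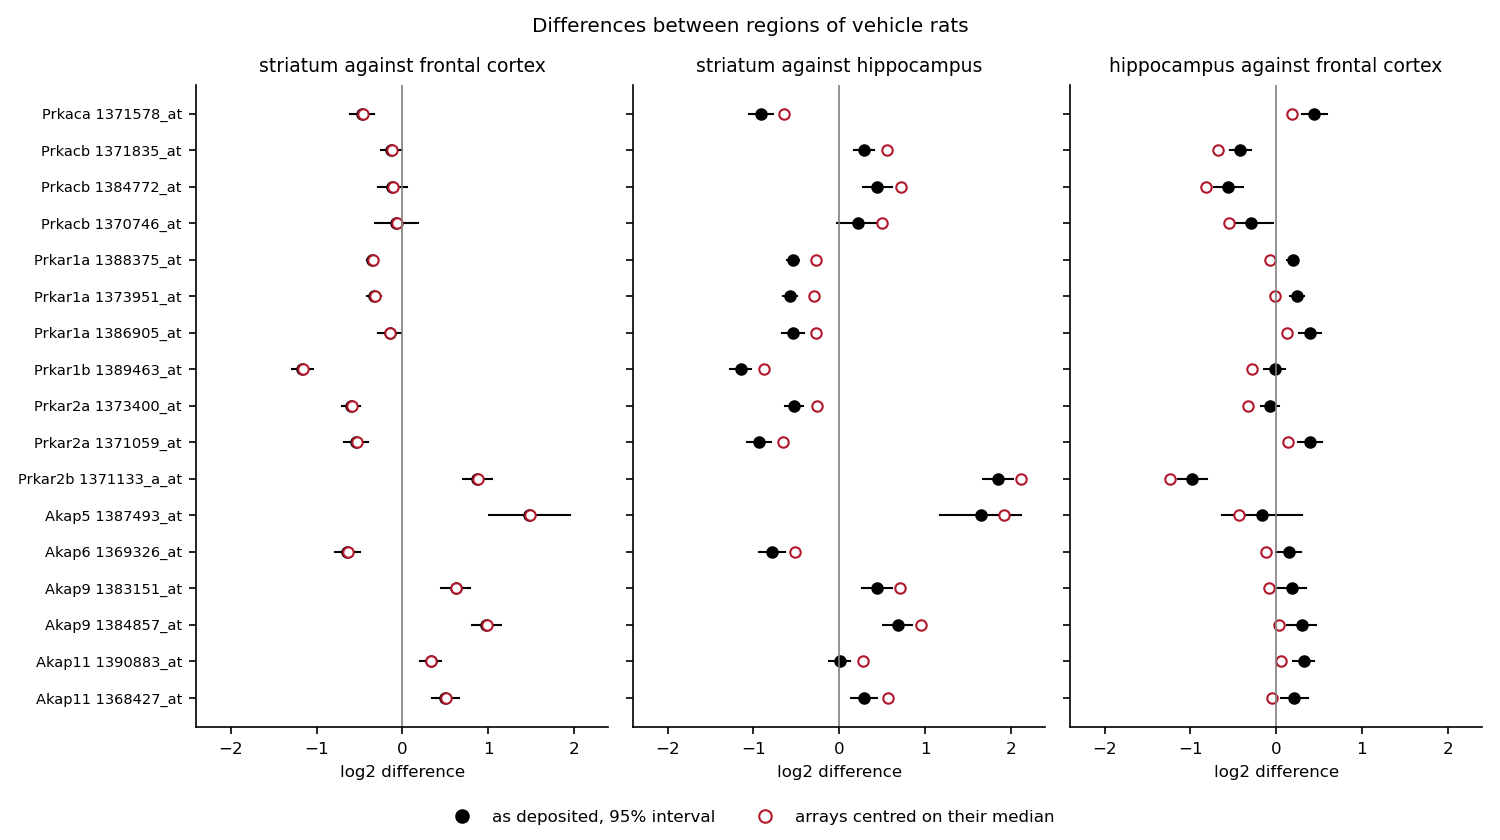
Differences between regions in vehicle rats (log2, horizontal) for the 17 tested probe sets, with 95% confidence intervals for the values as deposited (filled) and the values after each array was centred on its median (open). Prkar2b, Akap5 and Akap9 lie to the right and Prkar1b to the left in both comparisons of striatum, while hippocampus against frontal cortex shifts left after centring and 5 probe sets (Akap11 1368427_at, Akap6, Akap9 1383151_at, Prkar1a 1373951_at and Prkar1a 1388375_at) change sign with centring.

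The catalytic subunits had different regional patterns. Prkaca (1371578_at), which encodes the widely expressed alpha form, averaged 8.43 ± 0.06 in striatum, 9.35 ± 0.12 in hippocampus and 8.90 ± 0.09 in frontal cortex (SD, n = 5 each). It was lower in striatum by limma against frontal cortex (-0.47 ± 0.07 on the log2 scale, SE, adjusted p = 2.16e-07) and against hippocampus (-0.91 ± 0.07, adjusted p = 5.11e-15), under all 3 scalings. The order hippocampus, frontal cortex, striatum thus held between striatum and the rest, whereas hippocampus against frontal cortex was called as deposited (0.44) and not after centring or quantile normalization. Prkacb, which encodes the beta form and is abundant in brain, was measured by 3 probe sets and was lowest in hippocampus. Prkacb 1371835_at had 12.19, 11.97, 11.81, 12.02 and 12.03 in hippocampus, against 12.52, 12.28, 12.46, 12.50 and 12.35 in frontal cortex, so that the regions did not overlap. All 3 Prkacb probe sets were called lower in hippocampus than in frontal cortex under all 3 scalings, at -0.42, -0.56 and -0.29 as deposited. Striatum stood 0.29, 0.44 and 0.22 above hippocampus as deposited. The last of these, 1370746_at, was not called as deposited (limma, adjusted p = 0.0995), though it was after centring or quantile normalization. Striatum and frontal cortex were neighbours that did not pass the test for Prkacb, at -0.13, -0.12 and -0.07, and for 2 of the probe sets, 1370746_at and 1384772_at, the sign turned with quantile normalization.

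Among the regulatory subunits, Prkar2b and Prkar1b ran in opposite directions between striatum and frontal cortex. Prkar2b encodes the type II beta subunit, a form abundant in neurons and fat. Its log2 values (1371133_a_at) in vehicle rats were 11.15, 11.21, 11.18, 11.14 and 11.14 in striatum, 9.55, 9.34, 9.04, 9.29 and 9.35 in hippocampus, and 10.31, 10.29, 10.30, 10.33 and 10.20 in frontal cortex. The regions did not overlap at any step of the order striatum, frontal cortex, hippocampus, and each step was called under all 3 scalings. Striatum stood 0.87 ± 0.08 above frontal cortex (1.83-fold, adjusted p = 6.68e-12) and 1.85 ± 0.08 above hippocampus (3.61-fold, adjusted p = 4.20e-22), and hippocampus stood at -0.98 ± 0.08 from frontal cortex (adjusted p = 6.24e-13).

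Prkar1b encodes the type I beta subunit, which is largely restricted to neural tissue. In vehicle rats 1389463_at had 10.71, 10.83, 10.64, 10.81 and 10.77 in striatum, 11.99, 11.94, 11.81, 11.88 and 11.89 in hippocampus, and 11.95, 11.96, 11.91, 11.85 and 11.93 in frontal cortex. Striatum lay below every rat of both other regions, which overlapped each other. The difference of striatum from frontal cortex was -1.17 ± 0.06 (2.25-fold lower, adjusted p = 8.01e-20) and from hippocampus -1.15 ± 0.06 (adjusted p = 4.77e-20, and -0.88 with arrays centred), and both were called under all 3 scalings. Hippocampus against frontal cortex was -0.02 as deposited (adjusted p = 0.794) and -0.28 with arrays centred, which was called.

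The widely expressed subunits Prkar1a (type I alpha) and Prkar2a (type II alpha) had smaller differences between striatum and frontal cortex. The 2 tested Prkar2a probe sets were at -0.60 and -0.54 against frontal cortex, called under all 3 scalings. The 3 Prkar1a probe sets were at -0.35, -0.33 and -0.15, of which the first 2 were called as deposited but not after quantile normalization. Against hippocampus, the 3 Prkar1a probe sets were at -0.54 to -0.57 in striatum as deposited, and 1388375_at was the 1 of them called under all 3 scalings.

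The anchors also split. Akap5, the neuronal anchor of the postsynaptic membrane that also binds calcineurin and protein kinase C, averaged 8.11 ± 0.37 in striatum, 6.46 ± 0.42 in hippocampus and 6.63 ± 0.45 in frontal cortex. It stood 1.48 ± 0.23 above frontal cortex in striatum (2.79-fold, adjusted p = 5.22e-07) and 1.65 ± 0.23 above hippocampus (3.14-fold, adjusted p = 3.80e-08), while hippocampus and frontal cortex did not pass the test (-0.17, adjusted p = 0.522). Akap9, a very large protein with a long form at the Golgi apparatus and centrosome and a short form, yotiao, that binds NMDA receptors, was also higher in striatum. Its probe sets 1383151_at and 1384857_at were 0.62 and 0.98 higher than in frontal cortex and 0.44 and 0.68 higher than in hippocampus, all called under the 3 scalings. Akap11, an anchor that also binds glycogen synthase kinase 3 beta, had 2 probe sets, 1390883_at and 1368427_at, at 0.33 and 0.50 in striatum against frontal cortex. Against hippocampus they were at 0.01 (adjusted p = 0.921, not called as deposited, and 0.28 and called with arrays centred) and 0.29 (called under all 3 scalings). Akap6, an anchor of the nuclear envelope in muscle and neurons, was the 1 anchor lower in striatum, by limma at -0.64 ± 0.07 from frontal cortex (adjusted p = 5.21e-10) and -0.79 from hippocampus.

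**Figure D2:**
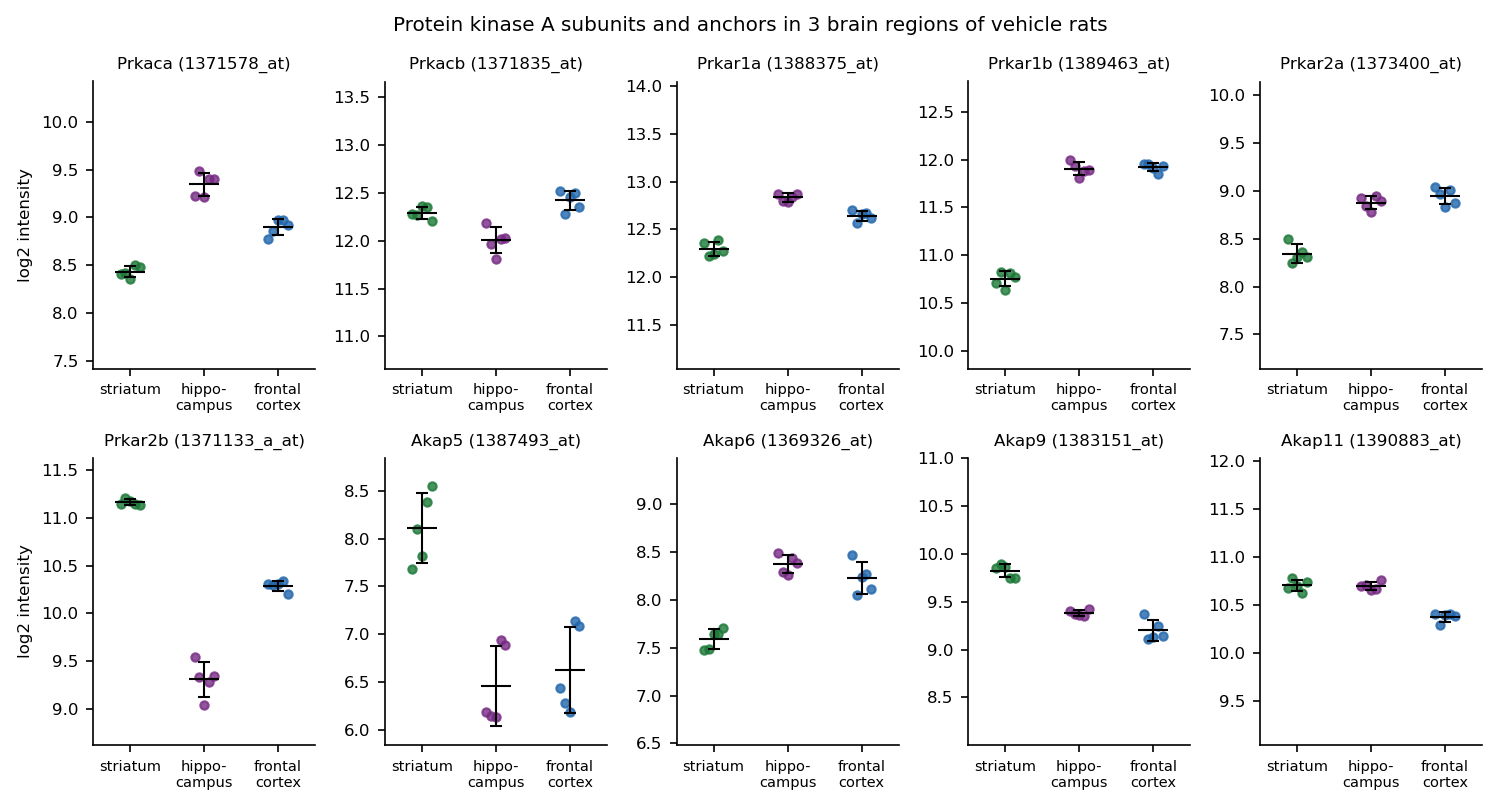
Log2 intensity of each gene's brightest probe set in the 5 vehicle rats by region (points, 1 rat each), with the mean and SD; each panel spans the same number of log2 units but has its own level, since probe sets cannot be compared with each other. Prkar2b falls in the order striatum, frontal cortex, hippocampus without overlap, Prkar1b is low in striatum, and Akap5 has the widest spread between rats.

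Under drug treatment, Akap9 was the only gene of the 10 called against vehicle in any region, and it was called in striatum. With risperidone 2 of 17 probe sets were called, both of Akap9 and both lower, where 2.76% of all probe sets were called lower. With haloperidol 1 of 17 was called, again of Akap9 and lower, against 0.296% of all. The median change of the 17 probe sets was -0.10 with risperidone and -0.08 with haloperidol, against -0.02 over all probe sets with each drug. The drug groups share the same vehicle rats, so their comparisons are not independent of each other.

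Akap9 1384857_at had log2 values of 8.53, 8.16, 7.94, 8.40 and 8.34 in the striatum of risperidone rats, 8.66, 8.30, 8.27, 8.42 and 8.33 in haloperidol rats, and 8.87, 9.08, 8.72, 8.70 and 8.85 in vehicle rats. Every drug-treated rat lay below every vehicle rat. The difference from vehicle was -0.57 ± 0.09 with risperidone (95% confidence interval -0.76 to -0.38, adjusted p = 2.19e-04) and -0.44 ± 0.09 with haloperidol (-0.63 to -0.25, adjusted p = 0.0200). The risperidone call was kept when any 1 of the 10 rats was left out (-0.63 to -0.48), and the haloperidol call was lost without 5 of the 10 (haloperidol rats 2, 3 and 5 and vehicle rats 1 and 2; adjusted p up to 0.110, without vehicle rat 2). An alternative left out arrays more than 0.5 above the mean of the region in markers of a neighbouring tissue. In striatum, by pyramidal markers, these were risperidone rat 3 and haloperidol rats 3 and 5, and no vehicle rat. With these fewer drug-treated arrays, Akap9 1384857_at was at -0.49 with risperidone (adjusted p = 0.00413) and -0.39 with haloperidol (adjusted p = 0.147). With the marker mean as a covariate it was at -0.46 (adjusted p = 0.0968) and -0.33 (adjusted p = 0.666). That fit took striatum alone without the rat block, unlike that with the Gapdh covariate below. Fitting striatum alone ended the haloperidol call also without the covariate. As signs of RNA quality, the 3 prime minus 5 prime difference of Actb in striatum was 1.12 to 1.39 in risperidone rats and 1.17 to 1.40 in haloperidol rats, against 1.07 to 1.19 in vehicle rats, and its part in the result was not tested. That of Gapdh was -0.07 to 0.14 in risperidone rats and -0.05 to 0.09 in haloperidol rats, against -0.05 to 0.05 in vehicle rats, and with it as a covariate both calls were kept (-0.57 and -0.45).

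The other Akap9 probe set, 1383151_at, had 9.81, 9.58, 8.90, 9.69 and 9.55 in the striatum of risperidone rats, 9.82, 9.46, 9.40, 9.73 and 9.64 in haloperidol rats, and 9.86, 9.89, 9.86, 9.75 and 9.75 in vehicle rats. Risperidone rat 3 was far below the rest, and the highest drug-treated rats overlapped the vehicle rats. The difference was -0.32 ± 0.10 with risperidone (-0.51 to -0.13, adjusted p = 0.0428) and -0.21 with haloperidol (adjusted p = 0.280). The risperidone call ended without 7 of the 10 rats (risperidone rats 3 and 5 and each of the vehicle rats), and the value was -0.17 without risperidone rat 3 (adjusted p = 0.275). Without the arrays high in pyramidal markers it was also -0.17 (adjusted p = 0.249). Over the 45 arrays, with the region means removed, the 2 Akap9 probe sets had a Pearson r of 0.81. This describes arrays that share rats, treatments and tissue composition, and treatment means were not removed.

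**Figure D3:**
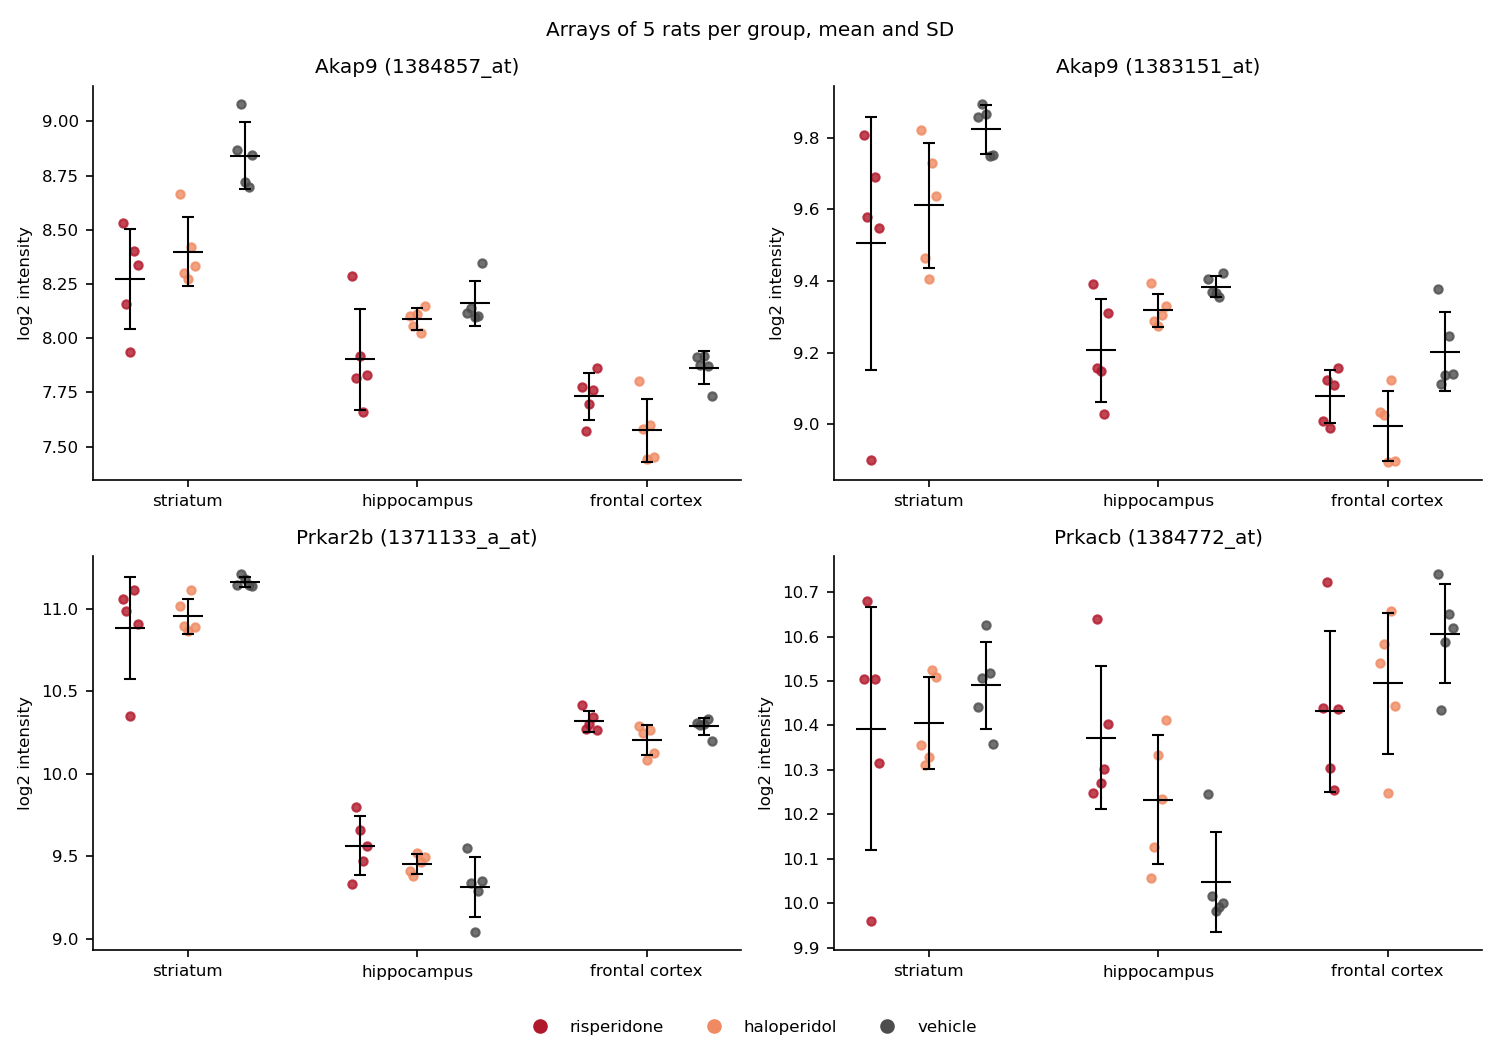
Log2 intensity per rat (points) with mean and SD for Akap9 1384857_at, Akap9 1383151_at, Prkar2b and Prkacb 1384772_at, by region and by risperidone, haloperidol and vehicle. In striatum every drug-treated rat lies below the vehicle rats for Akap9 1384857_at and for Prkar2b, and 1 risperidone rat is far below its group for Akap9 1383151_at and Prkar2b.

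Among the regulatory subunits in striatum, Prkar2b had 11.06, 10.98, 10.35, 11.11 and 10.91 in risperidone rats, 11.02, 10.89, 10.86, 11.11 and 10.89 in haloperidol rats, and 11.15, 11.21, 11.18, 11.14 and 11.14 in vehicle rats. All drug-treated rats lay below all vehicle rats, yet the difference was not called with risperidone (-0.28 ± 0.10, 95% confidence interval -0.47 to -0.08, adjusted p = 0.0769) or haloperidol (-0.21, adjusted p = 0.293). Groups lay apart in the lower direction for 2 of 17 probe sets with each drug (Akap9 1384857_at and Prkar2b), against 2.59% of all probe sets with risperidone and 2.64% with haloperidol. The risperidone value of Prkar2b was -0.15 without risperidone rat 3 (adjusted p = 0.40) and -0.15 without the arrays high in pyramidal markers (adjusted p = 0.300), and it passed without risperidone rat 1 or 4 (-0.32 and -0.34).

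Prkar1b was at 10.73, 10.79, 11.37, 10.91 and 10.86 in the striatum of risperidone rats, 10.84, 10.83, 10.88, 10.95 and 11.01 in haloperidol rats, and 10.71, 10.83, 10.64, 10.81 and 10.77 in vehicle rats. The groups overlapped, and risperidone rat 3, whose array was highest in pyramidal markers, was the highest by far. The difference was not called with risperidone (0.18 ± 0.07, adjusted p = 0.121, and 0.07 without risperidone rat 3) or haloperidol (0.15, adjusted p = 0.297). With Akap9 set aside, the other 15 probe sets ranged from -0.28 to 0.18 with risperidone in striatum, with adjusted p of 0.0769 to 0.962, and from -0.27 to 0.15 with haloperidol, with adjusted p of 0.293 to 0.975. They included Akap5, with -0.26 (95% confidence interval -0.79 to 0.27) and -0.27 (-0.80 to 0.26), intervals that hold changes in both directions.

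In hippocampus, 0 of 17 probe sets were called with risperidone by limma, against 0.113% of all probe sets, and 5 had an unadjusted p under 0.05, as did 16.6% of all probe sets. The catalytic subunit Prkacb was on the high side. Prkacb 1384772_at had 10.25, 10.64, 10.27, 10.30 and 10.40 in risperidone rats, 10.06, 10.13, 10.33, 10.23 and 10.41 in haloperidol rats, and 10.25 in vehicle rat 1 and 9.98 to 10.02 in the other 4 vehicle rats. The lowest risperidone rat lay just above vehicle rat 1, the highest of its group. The difference was 0.32 ± 0.10 (adjusted p = 0.102), with 0.22 for 1371835_at (adjusted p = 0.108) and 0.27 for 1370746_at (adjusted p = 0.330). Risperidone and vehicle groups lay apart in the higher direction for 2 of 17 probe sets, against 2.85% of all: this one, and Prkar1a 1373951_at, whose difference was 0.10.

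Prkar2b, the regulatory subunit, had 9.33, 9.80, 9.66, 9.47 and 9.56 in the hippocampus of risperidone rats, 9.41, 9.38, 9.52, 9.46 and 9.50 in haloperidol rats, and 9.55, 9.34, 9.04, 9.29 and 9.35 in vehicle rats. The groups overlapped and the difference of 0.25 was not called (adjusted p = 0.186). Without the hippocampal arrays high in choroid plexus and meningeal markers, Prkar2b was at 0.14 and Prkacb 1384772_at at 0.28 with risperidone. Akap9 was at -0.18 and -0.26 with risperidone, and 1384857_at passed when risperidone rat 1 was left out (-0.35, adjusted p = 0.0336). With haloperidol, 0 of 17 probe sets were called in hippocampus, and 0 had an unadjusted p under 0.05, where 0% of all probe sets were called and 3.76% had such a p.

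In frontal cortex, 0 of 17 probe sets were called by limma with risperidone, where 3.4% of all probe sets were called, and 2 had an unadjusted p under 0.05, as did 22.7% of all. With haloperidol 0 were called, against 0.177% of all, and 3 had an unadjusted p under 0.05, as did 13.6% of all. The lowest values with risperidone were those of the anchor Akap6, with 8.11, 7.98, 7.96, 7.97 and 8.03 in risperidone rats, 8.15, 8.18, 7.81, 8.21 and 7.94 in haloperidol rats, and 8.47, 8.05, 8.24, 8.28 and 8.11 in vehicle rats. These groups overlapped, and the difference was -0.22 ± 0.08 with risperidone (adjusted p = 0.103) and -0.17 with haloperidol (adjusted p = 0.358). Without the arrays high in olfactory bulb markers Akap6 was at -0.20 with risperidone. Akap9 1384857_at was at -0.29 with haloperidol (adjusted p = 0.182) and -0.13 with risperidone in this region. The median of the 17 probe sets was -0.07 with risperidone, against 0.01 over all probe sets, and -0.06 with haloperidol, against -0.04.

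When the drugs were set against each other, no difference was called in these genes. Between risperidone and haloperidol, 0 of 17 probe sets were called in striatum, hippocampus or frontal cortex by limma, against 0.0161%, 0% and 0.768% of all probe sets. An unadjusted p under 0.05 was found for 0 of 17 in each region, against 4.47%, 5.91% and 20.1% of all. For Akap9 1384857_at in striatum the difference was -0.12, with a 95% confidence interval of -0.32 to 0.07, an interval that includes 0.

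**Figure D4:**
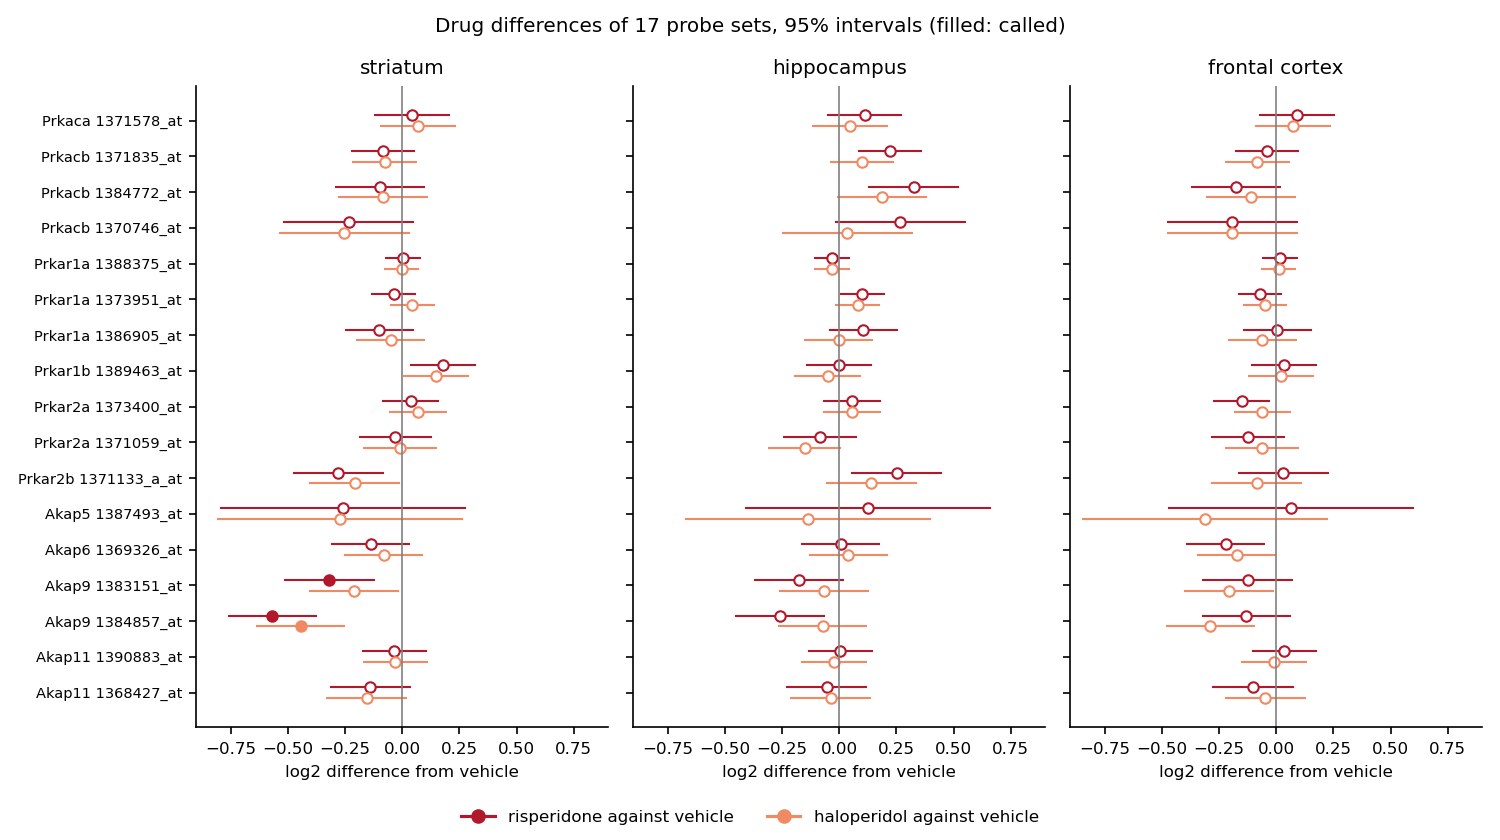
Log2 changes of the 17 probe sets with risperidone and with haloperidol against vehicle in striatum, hippocampus and frontal cortex, with 95% confidence intervals; filled points were called. The filled points are Akap9 1384857_at with both drugs and Akap9 1383151_at with risperidone, all in striatum and below 0.

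Whether a drug effect differed between regions was tested as an interaction. For risperidone, 1 of 17 probe sets was called for striatum against frontal cortex, where 2.94% of all probe sets were called. This was Akap9 1384857_at, at -0.57 in striatum and -0.13 in frontal cortex, a difference of -0.44 ± 0.12 (95% confidence interval -0.68 to -0.20, adjusted p = 0.0312). Omitting risperidone rat 2 or 3 or vehicle rat 1, 2 or 5 ended the call, 5 of the 10 omissions (adjusted p at most 0.109, with risperidone rat 3 omitted), as did leaving out the arrays high in markers of a neighbouring tissue (-0.35, adjusted p = 0.208). In hippocampus Akap9 1384857_at was at -0.26 with risperidone, and its difference between striatum and hippocampus was not called.

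For striatum against hippocampus, 2 of 17 were called, against 1.66% of all. The regulatory subunit Prkar2b was at -0.28 with risperidone in striatum and 0.25 in hippocampus, a difference of -0.53 ± 0.12 (-0.77 to -0.29, adjusted p = 0.0169). Prkacb 1371835_at was at -0.08 in striatum and 0.22 in hippocampus, a difference of -0.31 ± 0.08 (-0.48 to -0.14, adjusted p = 0.0459), and the other Prkacb probe sets were at -0.42 (adjusted p = 0.0512) and -0.50 (adjusted p = 0.111). In vehicle rats both genes were higher in striatum than in hippocampus, so under risperidone the regions lay closer together: Prkar2b averaged 10.88 in striatum and 9.56 in hippocampus in risperidone rats, against 11.16 in striatum and 9.31 in hippocampus in vehicle rats. The Prkar2b call ended when risperidone rat 3, vehicle rat 2 or vehicle rat 3 was omitted (3 of 10 omissions, adjusted p at most 0.0780) and the Prkacb call without 7 (risperidone rats 2, 3 and 5 and vehicle rats 2 to 5; up to 0.184, without vehicle rat 3). Without the arrays high in markers of a neighbouring tissue, Prkar2b was at -0.28 (adjusted p = 0.199) and Prkacb 1371835_at at -0.22 (adjusted p = 0.337). With the replicate number as a block the Prkacb call was also lost (adjusted p = 0.0568).

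For hippocampus against frontal cortex, 1 of 17 was called with risperidone, against 1.32% of all. Prkacb 1384772_at was at 0.32 in hippocampus and -0.17 in frontal cortex, a difference of 0.50 ± 0.12 (0.26 to 0.74, adjusted p = 0.0292), with 0.26 and 0.46 for the other Prkacb probe sets (adjusted p = 0.101 and 0.163). Omitting risperidone rat 5 or any of vehicle rats 2 to 5 ended this call, 5 of the 10 omissions (adjusted p at most 0.101, with vehicle rat 4 omitted), and the value without the arrays high in markers of a neighbouring tissue was 0.55 (adjusted p = 0.0610). For haloperidol, 0 of 17 were called in any of the 3 interactions, against 0.0269%, 0% and 0% of all probe sets. An unadjusted p under 0.05 was found for 5 of 17 for striatum against hippocampus, against 7.36% of all, for 4 for hippocampus against frontal cortex, against 8.4%, and for 0 for striatum against frontal cortex, against 7.41%.

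Akap5 differed from the other 9 genes in where its spread lay. The median SD within a group was 0.51 for Akap5, against 0.05 to 0.23 for the other 16 probe sets. Much of that spread followed the rat and not the array. After the group means were removed, the share of the remaining variance that the 3 arrays of a rat had in common was 0.81 for Akap5, higher than in 98.4% of the 18609 probe sets, against -0.14 to 0.53 for the other members and a median of 0.22 over all probe sets. In haloperidol rats, for example, Akap5 had 8.72, 7.77, 7.20, 8.27 and 7.23 in striatum, 7.09, 6.17, 5.84, 6.56 and 5.95 in hippocampus, and 7.19, 6.05, 6.01, 6.63 and 5.70 in frontal cortex. Rats 1 and 4 were high and rats 3 and 5 low in each region. Of the 15 rats, 12 deviated from their group in the same direction in all 3 regions, the exceptions being risperidone rats 2, 3 and 4. This pattern was picked out after its values were seen and is given as a description.

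**Figure D5:**
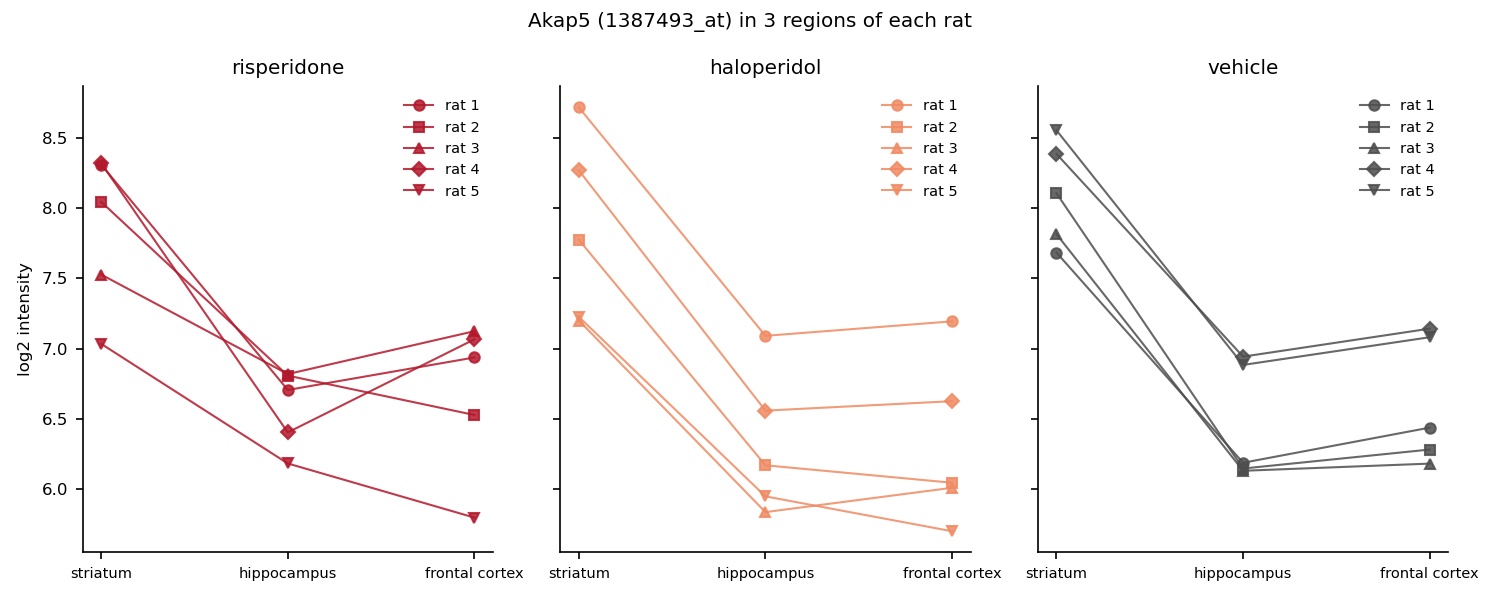
Log2 intensity of Akap5 in striatum, hippocampus and frontal cortex, with a line joining the 3 arrays of each rat, in panels for risperidone, haloperidol and vehicle. The lines run largely in parallel, with 12 of the 15 rats on the same side of their group mean in all regions.

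The genes most like Akap9 over the 45 arrays, after the region means were removed, were found by Pearson correlation and differed between its probe sets. For 1384857_at they were Tpr and Nup205, which encode proteins of the nuclear pore (r = 0.83 each), then Dcun1d4 (0.80) and the chromatin regulators Ash1l and Atrx (0.79 each). For 1383151_at they were Lmo7 and Slmap (0.88 each), Ankrd17 (0.85), Rai1 (0.84) and Fry (0.84). The points share rats, regions, treatments and tissue composition. Treatment means were not removed, and all of these genes were lower with risperidone in striatum. By limma they ran from -0.16 for Fry (adjusted p = 0.155) to -0.51 for Atrx (adjusted p = 4.63e-04).

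The wider cAMP pathway was followed in 53 measured genes, each by its brightest probe set. They comprised 17 other anchors, 3 inhibitors and relatives of kinase A, 12 adenylyl cyclases and G alpha subunits, 13 cAMP phosphodiesterases and 8 phosphatase subunits. With risperidone in striatum, 1 of the 53 was called higher and 1 lower, against 0.995% and 2% of 10248 genes. The higher one was Gnas, which encodes the stimulatory G protein alpha subunit, at 0.32 ± 0.09 (adjusted p = 0.0238). Akap8l, a nuclear protein related to the anchor Akap8, was the lower one, with 9.57, 9.26, 9.24, 9.66 and 9.67 in risperidone rats, 9.75, 9.39, 9.42, 9.61 and 9.49 in haloperidol rats, and 9.88, 9.85, 9.75, 9.78 and 9.88 in vehicle rats. The highest risperidone rat was lower than the lowest vehicle rat, the difference was -0.35 (adjusted p = 0.0428), and leaving out any of 7 rats among the 10 ended the call (adjusted p reaching 0.20 without risperidone rat 3). The Gnas call ended without 6 (0.24 and adjusted p = 0.143 without risperidone rat 3), and without the arrays high in pyramidal markers Gnas was at 0.24 (adjusted p = 0.115) and Akap8l at -0.29 (adjusted p = 0.171). With striatum fitted on its own, Gnas was at 0.32 (adjusted p = 0.23) and Akap8l at -0.35 (adjusted p = 0.123). With the mean of the pyramidal markers added to that fit, Gnas was at 0.19 (adjusted p = 0.649) and Akap8l at -0.28 (adjusted p = 0.35). With risperidone in frontal cortex, 1 of the 53 was called higher, against 1.93% of all genes, and 1 lower, against 1.37%. These were Prkx, a relative of the kinase A catalytic subunit, at 0.35 (adjusted p = 0.0297), and Ppp1cb, a catalytic subunit of protein phosphatase 1, at -0.35 (adjusted p = 0.0492). The Prkx call ended in 6 of the 10 omissions of a rat (up to 0.112, without risperidone rat 2) and the Ppp1cb call without 8 (up to 0.124, without vehicle rat 5). Without the arrays high in olfactory bulb markers, Prkx was at 0.27 (adjusted p = 0.152) and Ppp1cb at -0.41 (adjusted p = 0.0572). With frontal cortex fitted on its own, Prkx was at 0.35 (adjusted p = 0.0919) and Ppp1cb at -0.35 (adjusted p = 0.124), so neither was called. With the mean of the olfactory bulb markers added to that fit, Prkx was at 0.22 (adjusted p = 0.469) and Ppp1cb at -0.34 (adjusted p = 0.369). In the other 7 drug comparisons 0 of the 53 genes were called by limma, with 1 to 12 of them at an unadjusted p under 0.05. The 12 were found with risperidone in hippocampus, where 16.3% of 10248 genes had such a p, followed by 7 with haloperidol in striatum, against 14.9%.

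Between regions of vehicle rats, the pathway genes were split. In striatum, 18 of 53 were called higher and 18 lower than in frontal cortex, against 17.7% and 26.4% of all genes. Of 13 phosphodiesterases 7 were higher and 4 lower, of 12 cyclases and G alpha subunits 4 were higher and 6 lower, of 17 other anchors 2 were higher and 6 lower, of 8 phosphatase subunits 3 were higher and 2 lower, and of 3 inhibitors and relatives 2 were higher and 0 lower. Chosen after their values were seen, the striatal adenylyl cyclase Adcy5 was 3.00 higher on the log2 scale, the G protein subunit Gnal 2.77, and the phosphodiesterases Pde1b and Pde10a 3.10 and 2.72. The lowest members of the same lists were the cyclase Adcy2, at -1.75, and the phosphodiesterase Pde1a, at -2.25. Pde10a is also 1 of the striatal markers. Among the other anchors, the lowest was Sphkap, which binds type I regulatory subunits, at -1.90, and the highest the mitochondrial anchor Akap1, at 0.94.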

How the data were processed

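The authors deposited probe set intensities on a linear scale, made from the array scans by robust multi-array averaging (RMA) in R 2.7.2 per the labels; whether the 3 regions were normalized together is not stated there or in the methods. Intensities were converted to log2 values. Dim probe sets, those whose mean over the 45 arrays fell under the 40th percentile, were dropped (18609 of 31099 remained), and 57 control probe sets were left out. In limma 3.58.1 (R 4.3.3), 9 groups of region and treatment were fitted with random effects of rat (duplicateCorrelation, 0.226), and p-values were adjusted by Benjamini-Hochberg within each contrast. The arrays of a rat deviated together (median r of 0.35, over 0.1 in 44 of 45 pairs), as the labels give each animal's number. Animal numbers ran from 32 to 36 with vehicle, 41 to 50 with haloperidol and 52 to 60 with risperidone, so anything that followed that order cannot be told apart from treatment. Array number limits the precision. The rule named all 10 genes, pathway genes called in a drug contrast (at most 4 per list) and the 5 genes most like each called Akap9 probe set. Pathway genes named for their differences between regions were outside this rule and were picked by their values. The genes and lists were chosen with earlier results of these data known. The script was tested on simulated data, and 14 alternatives were planned and 1 added after the marker values were seen. Human samples of the study were not used here.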

Additional observations from a re-analysis of the deposited data

Results flagged for a closer look

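Each of the 17 probe sets was tested in each of the 9 groups of 5 rats. In 8 of these 153 tests, 1 rat stood apart from the other 4, where chance flags about 1 in 20. The tests share arrays and are not independent of each other. In risperidone rats these were Prkar2b in the striatum of rat 3 (10.35, others 10.91 to 11.11), Akap9 1383151_at in the same array (8.90, others 9.55 to 9.81), Prkar1b in the same array (11.37, others 10.73 to 10.91) and Prkaca in the frontal cortex of rat 2 (8.68, others 9.04 to 9.11). The striatal array of rat 3 was the highest in pyramidal neuron markers and the cortical array of rat 2 the highest in olfactory bulb markers. In vehicle rats they were Prkacb 1384772_at in the hippocampus of rat 1 (10.25, others 9.98 to 10.02), Akap9 1384857_at in the frontal cortex (7.73, others 7.87 to 7.92) and hippocampus (8.35, others 8.10 to 8.14) of rat 5, and Akap11 1390883_at in the frontal cortex of rat 2 (10.29, others 10.38 to 10.41).

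By the interaction test of limma, 4 differences between regions in the effect of risperidone were called. Each call was lost with some single rats omitted, and without the arrays high in markers of a neighbouring tissue. Akap9 1384857_at had a difference of -0.44 for striatum against frontal cortex, where 2.94% of all probe sets were called. Prkar2b had -0.53 and Prkacb 1371835_at -0.31 for striatum against hippocampus, against 1.66% of all. Prkacb 1384772_at had 0.50 for hippocampus against frontal cortex, against 1.32% of all.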

How the results depend on the processing

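No value of a called probe set changed direction under any alternative, while the counts of called probe sets in the comparisons listed here depended on the setting. For risperidone against vehicle in striatum, 2 probe sets became 1 when each region was fitted on its own, with arrays centred, with quantile normalization, without the striatal array of risperidone rat 3 and without arrays high in markers of a neighbouring tissue, and 0 with the marker mean as a covariate. For haloperidol in striatum, 1 became 0 when each region was fitted on its own, with the mean of a gene's probe sets, with the marker covariate and without the arrays high in markers. The marker covariate was itself fitted on each region alone, without the rat block. In the risperidone interaction of striatum with frontal cortex, 1 became 0 with no filter, with no rat block, with the mean of probe sets, without the striatal array of risperidone rat 3 and without the arrays high in markers. In that of striatum with hippocampus, 2 became 1 with no filter, centring, quantile normalization, without the array of risperidone rat 3 and with the Gapdh 3 prime to 5 prime covariate, and 0 with no rat block and without the arrays high in markers. In that of hippocampus with frontal cortex, 1 became 0 with no filter, with no rat block, with the mean of probe sets and without the arrays high in markers. Between hippocampus and frontal cortex in vehicle rats, 9 became 6 with arrays centred and 5 with quantile normalization, with 0 called higher in hippocampus under either. Smaller changes of the other regional counts are not listed here.

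Leaving out 1 rat gave 0 to 1 for risperidone in hippocampus, 1 to 3 for risperidone in striatum, 0 to 1 for haloperidol in striatum, 0 to 1, 0 to 4 and 0 to 1 for the risperidone interactions in the order above, and 7 to 9 for hippocampus against frontal cortex. Samples of the same replicate number in different treatments did not deviate together (median r of -0.02, over 0.1 in 12 of 45 pairs), so the numbers do not pair rats. With the replicate number as a block, the count for striatum with hippocampus was 1 in place of 2, and no other count of member probe sets changed. Of the pathway genes, Ppp1cb lost its call in limma with that block (adjusted p = 0.0531). It also did with no filter (0.0622) and with quantile normalization (0.0535), as did Akap8l (0.0503 and 0.0769). Dim probe sets, such as those of Prkar2a and Akap6 that were not tested, limit what can be seen of these genes.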
